A study of Drosophila melanogaster with 12 samples.

Results

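The genes described here encode the phototransduction machinery of the fly eye, the proteins that turn the absorption of a photon by rhodopsin into an electrical response of the photoreceptor and then end that response. A list of 10 genes was considered (*ninaE*, *ninaC*, *norpA*, *trp*, *trpl*, *inaC*, *inaD*, *Arr1*, *Arr2* and *Gbeta76C*), and every probe set that the array annotation assigns to 1 of these genes and to no other gene was taken. Of the 10 genes, 7 had such a probe set, each exactly 1, so that 7 of 18769 probe sets are described, and 7 of the 11981 genes that have a probe set of their own. *ninaE*, *ninaC* and *norpA* are not analysed here.

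RNA was measured on Affymetrix *Drosophila* Genome 2.0 arrays in females mutant for *loj* (logjam), which encodes a p24 protein, a cargo adaptor of transport vesicles between the endoplasmic reticulum (ER) and the Golgi. Mutants carried the allele combination *loj* 00898/*loj* 04026, and each control sample pooled 6 *loj* 00898/+ with 6 *loj* 04026/+ females, so that controls were heterozygous and carried 1 wild-type copy of the gene. Females were 4 days old, had mated once with a wild-type male and were dissected 3 h after mating into abdomen and head/thorax. Each of the 4 groups (2 genotypes, 2 tissues) had 3 arrays, each from a separate RNA extraction of 12 females. The head/thorax sample holds the eyes together with the brain, the thoracic nervous system, flight muscle and head fat, whereas the abdomen holds no eye.

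In a fly photoreceptor, light-activated rhodopsin switches on a G protein of the Gq class, which activates a phospholipase C. Breakdown of the membrane lipid PIP2 then opens the cation channels TRP and TRPL, and calcium enters the cell. A scaffold protein, INAD, holds the channel TRP, the phospholipase and an eye-specific protein kinase C together in the rhabdomere, the stack of microvilli that captures light. Arrestins bind activated rhodopsin and end its signalling. Rhodopsin is synthesised in the ER and passes the Golgi on its way to the rhabdomere, which places photoreceptors among the cells with heavy traffic along the route on which p24 proteins act.

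In head/thorax all 7 genes gave intensities far above background on all 6 arrays, and none passed the test between *loj* and control. The unit is the intensity of a probe set, not log-transformed, and calls required a change of at least 1.5-fold with an adjusted p under 0.05 (limma, Benjamini-Hochberg adjustment over 18769 probe sets). This rule called 1.86% of all probe sets in head/thorax and 0 of the 7. At an unadjusted p under 0.05 the share was 17.8% of all probe sets and again 0 of the 7. The number of arrays limits the precision, and RNA of a mixed tissue cannot tell fewer photoreceptors from less RNA per photoreceptor.

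The G protein was represented by *Gbeta76C*, the eye-specific beta subunit that carries the alpha subunit to the membrane. Its head/thorax intensity was 5315, 5700 and 5344 on control arrays 1, 2 and 3 and 5331, 4868 and 5113 on *loj* arrays 1, 2 and 3. *loj* arrays 2 and 3 lay below all control arrays, and array 1 lay among them. The log2 fold change, *loj* over control, was −0.10 (SE 0.05, 95% interval −0.22 to 0.02, adjusted p = 0.39).

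Of the light-sensitive channels, *trp* encodes the founding member of the TRP family and carries most of the calcium current. Its intensity was 3580, 3857 and 3694 on the control arrays and 3901, 3264 and 3516 on the *loj* arrays, so that *loj* array 1 was the highest of the 6 and arrays 2 and 3 were the lowest. The log2 fold change was −0.06 (SE 0.07, 95% interval −0.24 to 0.11, adjusted p = 0.72). *trpl* encodes the second channel, which leaves the rhabdomere during prolonged light in wild-type flies. Its intensity was 5808, 6338 and 5715 on the control arrays and 6109, 4786 and 4356 on the *loj* arrays. *loj* arrays 2 and 3 were below every control array, whereas *loj* array 1 lay between control arrays. The log2 fold change of −0.24 (SE 0.13, 95% interval −0.56 to 0.07, adjusted p = 0.41) was the lowest of the 7 and had the widest interval.

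Both genes of the signalling complex that were measured differed by little. *inaC*, the eye-specific protein kinase C needed to deactivate the response, gave 3199, 3481 and 3586 in controls and 3322, 2956 and 3346 in *loj*. Only *loj* array 2 fell outside the control range, and the log2 fold change was −0.09 (SE 0.07, 95% interval −0.26 to 0.07, adjusted p = 0.55). The scaffold gene *inaD* gave 1761, 1898 and 1773 in controls and 2068, 1767 and 1748 in *loj*. Here *loj* array 1 was the highest of the 6 arrays and array 3 the lowest, and *inaD* alone of the 7 had a positive log2 fold change, 0.04 (SE 0.08, 95% interval −0.15 to 0.22, adjusted p = 0.86).

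The arrestins had the narrowest intervals. *Arr2*, the major arrestin, gave 15929, 16300 and 15328 in controls and 16343, 15695 and 15456 in *loj*, with a log2 fold change of −0.00 (SE 0.04, 95% interval −0.10 to 0.10, adjusted p = 0.99). *Arr1*, which also takes part in the light-driven uptake of rhodopsin, gave 13503, 13545 and 13339 in controls and 13139, 13209 and 12923 in *loj*. The 2 groups of *Arr1* did not overlap, the highest *loj* array being below the lowest control array. The difference was small, with a log2 fold change of −0.04 (SE 0.03, 95% interval −0.11 to 0.03, adjusted p = 0.55). *Arr1* was the 1 probe set of the 7 whose groups did not overlap, and 12.5% of all probe sets had non-overlapping groups with *loj* lower. The highest intensity of any probe set on a head/thorax array was 17735 to 17992, so both arrestins were read near the upper end of the scale, and whether that compressed their differences was not tested.

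**Figure D1:**
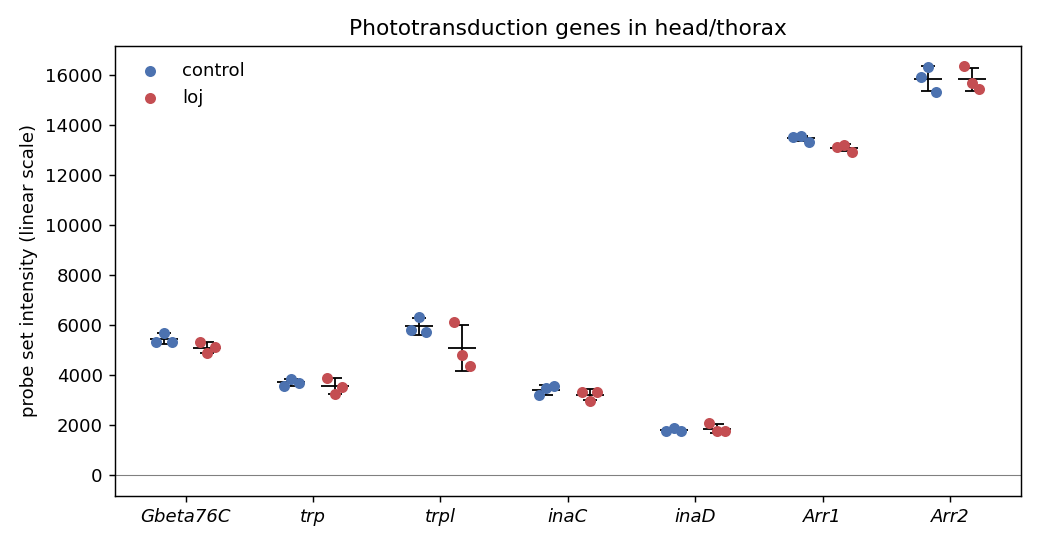
Head/thorax intensity (linear scale, y axis) of the 7 phototransduction genes on each control (blue) and *loj* (red) array; points are arrays 1 to 3 from left to right, and black bars give the mean and SD (n = 3). The groups overlap for 6 genes, *Arr1* is slightly lower on all 3 *loj* arrays, and *trpl* is spread from 4356 to 6109 in *loj*.

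The intervals state how large a change these arrays leave room for. For all 7 genes the 95% interval lay within 1.5-fold in both directions, which was so for 46.5% of all probe sets and for 83.6% of the 7136 probe sets above background on all 6 head/thorax arrays. The lower bounds corresponded to −31.95% for *trpl* and −7.49% for *Arr1*. The median absolute log2 fold change of the 7 was 0.06, against 0.18 over all probe sets and 0.12 over those above background. The comparison sets were not matched to the 7 in brightness, so these shares and medians do not show that the 7 are unusually stable. The SD of log2 intensity within a group had a median of 0.09 over the 7, near the 0.10 of the probe sets above background. Of the 7 log2 fold changes 6 were negative, with a median of −0.06, against −0.01 over all probe sets and −0.02 over those above background. Negative changes were found for 9549 of all 18769 probe sets and for 3983 of the 7136 above background.

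**Figure D2:**
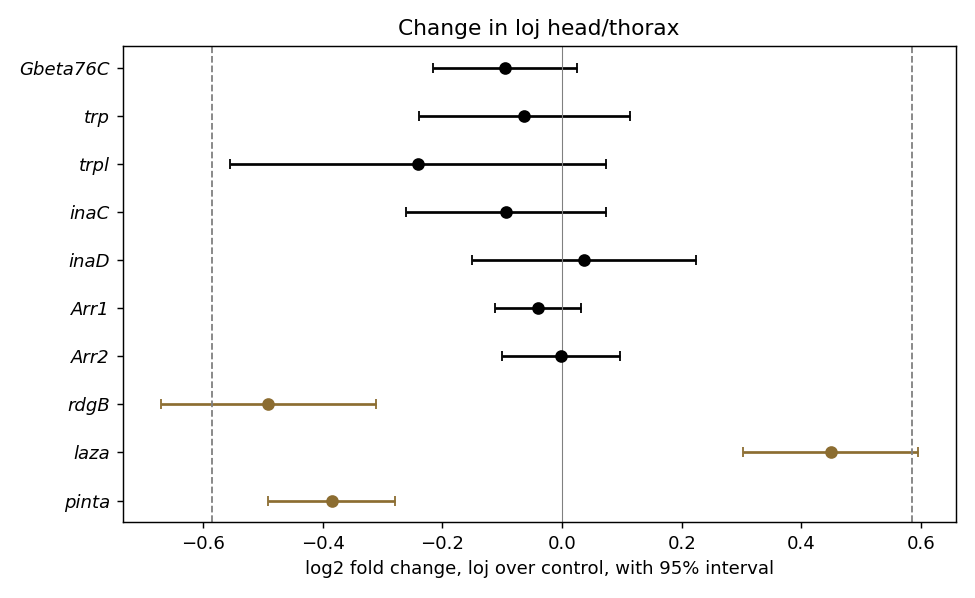
Log2 fold change in head/thorax, *loj* over control (x axis), with its 95% interval from limma for the 7 phototransduction genes (black) and for *rdgB*, *laza* and *pinta* (brown); dashed lines mark 1.5-fold. All 7 intervals of the phototransduction genes include 0 and lie between the dashed lines. The other 3 genes were picked after their values were seen, for an adjusted p under 0.05. Their intervals exclude 0 by that choice, so they are no contrast to the 7.

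The *loj* arrays differed among themselves in these genes. Relative to the control mean, the median deviation of the 7 genes on the log2 scale was 0.04 on *loj* array 1, −0.16 on array 2 and −0.06 on array 3, and control arrays 1 to 3 gave −0.04, 0.06 and −0.03. All 7 genes were below the control mean on *loj* arrays 2 and 3, against 3 of 7 on array 1. *trpl* was the lowest on both, at −0.31 and −0.45. The probe sets above background had median deviations of −0.01, −0.04 and −0.02 on the 3 *loj* arrays.

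*loj* array 1 also stood apart in ribosomal RNA. The probe set for the middle of the 18S rRNA read 7694 there, 1116 and 1221 on *loj* arrays 2 and 3, and 611, 814 and 819 on the control head/thorax arrays. Without this array all 7 log2 fold changes were negative (55.4% of the probe sets above background were), their median was −0.12 and 0 of 7 were called. *trpl* then had a log2 fold change of −0.38 (SE 0.07, 95% interval −0.56 to −0.20, adjusted p = 0.061), which did not pass the test after adjustment. This was the lowest value of *trpl* with any 1 head/thorax array left out. Over these fits it ranged from −0.38 to −0.14 (limma, adjusted p from 0.061 to 0.63). Without *loj* array 1 *inaD* changed sign to −0.04 (adjusted p = 0.70). The log2 ratio of the 3′ to the 5′ probe set of the actin gene *Act5C*, a measure of RNA integrity, was 1.33 to 1.44 on control and 0.79 to 1.02 on *loj* head/thorax arrays. Both readings differed between the genotypes without overlap, also when *loj* array 1 is left aside. The part of these technical differences in the values was not tested and cannot be told apart from genotype on these arrays.

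**Figure D3:**
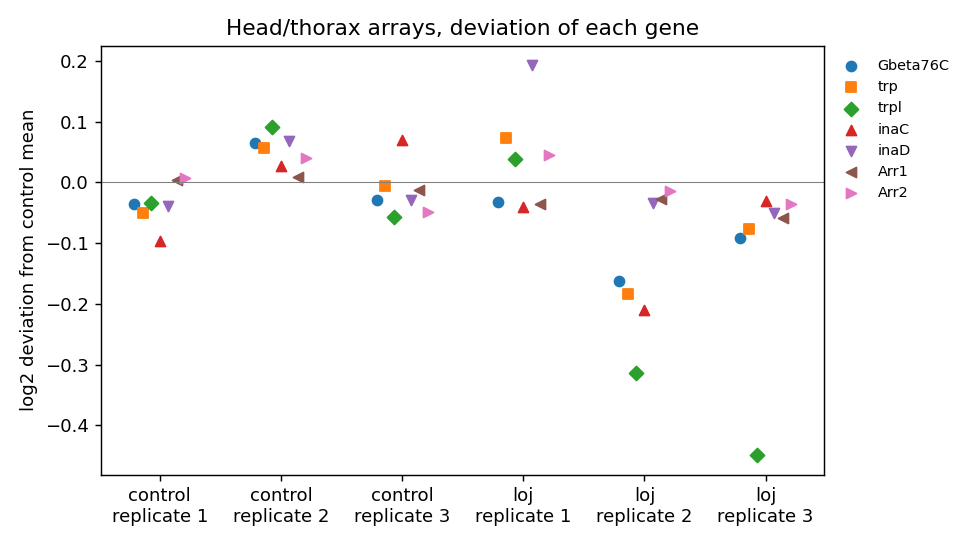
Deviation of each of the 7 genes from its control mean (log2 scale, y axis) on the 3 control and 3 *loj* head/thorax arrays (x axis); each symbol is 1 gene. All symbols lie below 0 on *loj* arrays 2 and 3, with *trpl* lowest at −0.31 and −0.45, and they scatter around 0 on *loj* array 1.

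The abdomen, which has no photoreceptors, served as background for these probe sets. A level of background was set for each array as the 95th percentile of 27 probe sets for *Bacillus subtilis* genes, and it lay between 76.8 and 131 on the abdomen arrays. All 7 genes were at or below it on all 6 abdomen arrays. *Gbeta76C* came closest, with 61.2, 77.0 and 53.2 in controls and 42.4, 21.99 and 59.8 in *loj*. The other 6 genes lay between −27.0 and 20.3. In controls all 7 were called higher in head/thorax than in abdomen, as 33% of all probe sets were (limma, adjusted p from 1.2e-08 for *Arr2* to 3.1e-05 for *trp*). Intensities below 1 had been set to 1 before log2. The control abdomen values of *Arr2* (−14.0, −13.4 and −20.0) thus had no spread in the fit, whereas those of *trp* (11.3, −6.48 and 4.31) did. The sizes of these p-values depend on that floor and do not rank the genes.

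Because the abdomen values were below background, the tissue differences are lower bounds, computed from the mean log2 intensity in head/thorax against the background level of the abdomen arrays. In controls *Arr2* was at least 148-fold and *Arr1* at least 126-fold higher in head/thorax, *trpl* at least 55.6-fold, *Gbeta76C* at least 51.0-fold, *trp* at least 34.7-fold, *inaC* at least 31.97-fold and *inaD* at least 16.9-fold. In *loj* the same 7 were called higher in head/thorax, with bounds from 21.4-fold for *inaD* to 182-fold for *Arr2*. That comparison called 10431 of the 18769 probe sets in either direction. These bounds follow each probe set's own brightness and the background level of the abdomen arrays, which averaged 108 in controls and 88.0 in *loj*. They neither rank the genes by tissue specificity nor compare the genotypes.

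**Figure D4:**
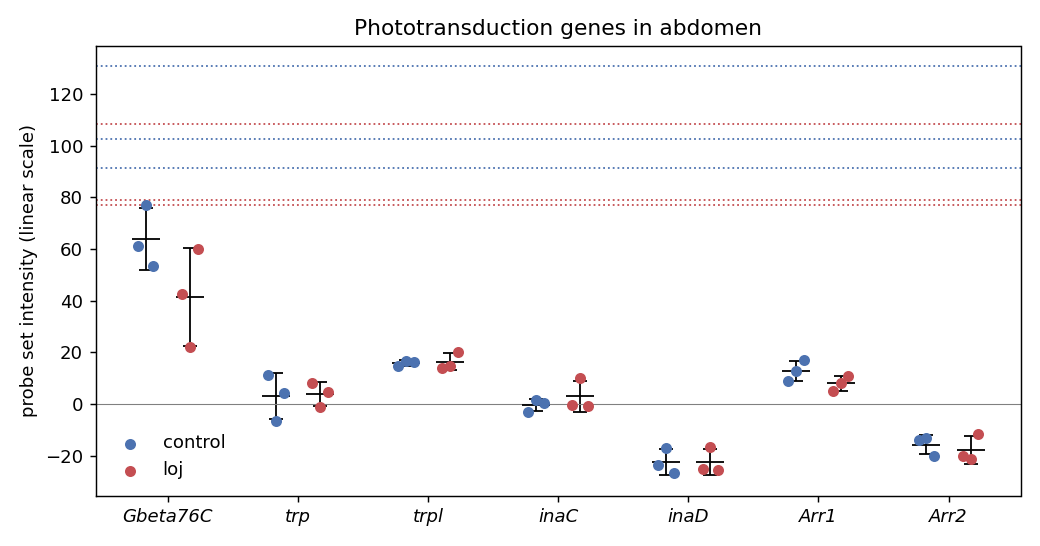
Abdomen intensity (linear scale, y axis) of the 7 genes on each control (blue) and *loj* (red) array, with black bars for the mean and SD (n = 3) and dotted lines for the background level of each array in the colour of its genotype. Every point lies below the background level of its own array.

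Between *loj* and control abdomens 0 of the 7 genes were called, where 0.874% of all probe sets were, and since both groups were at background no fold change is given. A test of the difference between tissues (interaction of genotype and tissue over all 12 arrays) called 0.506% of all probe sets and 0 of the 7, with adjusted p from 0.63 for *Arr1* to 0.998 for *Arr2*. At an unadjusted p under 0.05 the shares were 9.38% and 0 of the 7. Since the abdomen contributes only background readings for these genes, this test adds little beyond the head/thorax comparison.

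Further genes of the visual system were followed in 6 lists that together held 56 measured genes, each represented by its brightest single-gene probe set. In head/thorax 0 of the 56 were called higher and 1 was called lower, against 1.09% and 0.778% of all probe sets. Of the 56, 37 had a negative log2 fold change, against 9549 of all 18769 probe sets and 3983 of the 7136 above background. Only 41 of the 56 were above background on all 6 head/thorax arrays, so the 7136 are not a matched set. Of the other opsins, only *Rh7* was measured, and its mean intensity was 260 in the controls and 250 in the mutants (log2 fold change −0.05, SE 0.17). *Rh7* exceeded the background level on each head/thorax array, but was close to it in controls. The levels were 206 to 256 on control and 126 to 236 on *loj* head/thorax arrays.

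Of 16 other genes of the transduction and lipid cycle, 0 were called in either direction, and 13 had negative log2 fold changes with a median of −0.10. The brightest were *CdsA*, the CDP-diacylglycerol synthase that feeds resynthesis of PIP2, with means of 5371 and 5625 in control and *loj*, and *rtp* (retinophilin), which works with the myosin NINAC, with 2487 and 2189. Neither passed the test (adjusted p = 0.52 and 0.12). *Galphaq*, the alpha subunit of the G protein, was named as the partner of *Gbeta76C* after its values were seen. It read 559, 505 and 665 in controls and 402, 412 and 502 in *loj*, below all controls on each *loj* array. Its log2 fold change was −0.39 (SE 0.13, adjusted p = 0.20, limma). *Galphaq* was also above background on all abdomen arrays.

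A pair of genes in this list passed the adjusted p but changed by less than 1.5-fold, and they were singled out after their values were seen. *rdgB*, the phosphatidylinositol transfer protein whose loss causes retinal degeneration, read 1622, 1591 and 1732 in controls and 1257, 1203 and 1064 in *loj*. All 3 *loj* arrays lay below all controls, and the log2 fold change was −0.49 (SE 0.07, adjusted p = 0.028). *laza*, a lipid phosphate phosphatase that acts on phosphatidic acid in photoreceptors, read 954, 883 and 951 in controls and 1350, 1251 and 1206 in *loj*, with all *loj* arrays above all controls. Its log2 fold change was 0.45 (SE 0.06, adjusted p = 0.020). Groups that did not overlap were found with *loj* lower for 12.5% of all probe sets and with *loj* higher for 11.3%. At this looser rule, an adjusted p under 0.05 at any fold, 3.44% of all probe sets passed and 0 of the 7 phototransduction genes did. With the replicate number as a block, the adjusted p was 0.11 for *rdgB* and 0.066 for *laza*. In abdomen *laza* read 284 to 404 in controls and 380 to 515 in *loj*, above background on all 6 arrays. *rdgB* read 55.8 to 82.5 there, above background only on *loj* array 1 (82.5 against a level of 76.8).

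**Figure D5:**
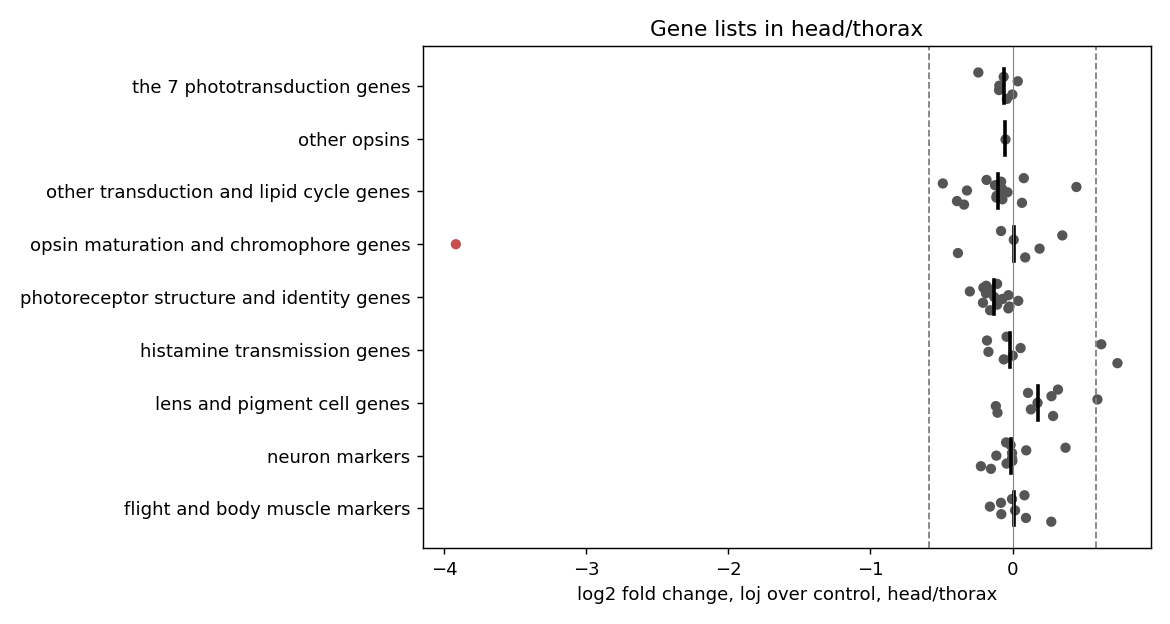
Log2 fold change in head/thorax, *loj* over control (x axis), of each gene (points) in the lists named on the y axis, with the list median as a black bar and dashed lines at 1.5-fold; red marks a called gene. The 7 phototransduction genes lie between −0.24 and 0.04, and *ninaD* at −3.92 is the called gene.

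Among 7 genes of opsin maturation and chromophore supply, 0 were called higher and 1 lower. The called gene was *ninaD*, a scavenger receptor that takes up the carotenoids from which the visual chromophore is made and that acts outside the photoreceptors. It read 242, 249 and 485 in controls, above background on all 3 arrays, and 14.9, 19.9 and 28.6 in *loj*, below background on all 3. Measured against the background level it was at least 1.89-fold lower in *loj* (fitted log2 fold change −3.92, adjusted p = 0.0089), and without *loj* array 2 the adjusted p was 0.051. *ninaD* was not confined to head/thorax, as it read 222 to 309 in control abdomens and 47.8 to 183 in *loj* abdomens. In abdomen, too, all *loj* arrays lay below all controls, a separation found with *loj* lower for 10.6% of all probe sets. The fitted log2 fold change there was −1.31, with *loj* abdomen array 2 below background (47.8 against a level of 78.9). The abdomen difference was not called (adjusted p = 0.32), and the change was not shown to differ between tissues (interaction adjusted p = 0.14).

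The next steps from carotenoid to chromophore did not pass the same rule. *santa-maria*, a second scavenger receptor, had means of 1904 and 1798 in control and *loj* (adjusted p = 0.51), and *ninaB*, the enzyme that cleaves carotenoids, 654 and 747 (adjusted p = 0.21). *pinta*, a retinoid-binding protein needed for rhodopsin synthesis, read 1212, 1220 and 1259 in controls and 950, 906 and 972 in *loj*. Its log2 fold change of −0.38 (SE 0.04, adjusted p = 0.013) was under 1.5-fold, and with the replicate block the adjusted p was 0.057. *pinta*, too, was picked after its values were seen, and *santa-maria* and *ninaB* were named as the neighbouring steps. In abdomen *pinta* read 756 to 875 in controls and 857 to 983 in *loj*, and the difference between tissues had an adjusted p of 0.063.

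Of 15 genes of photoreceptor structure and identity 0 were called. The log2 fold changes of 14 were negative, against 3983 of the 7136 probe sets above background, and the median of the list was −0.13. Only 10 of the 15 were above background on all 6 head/thorax arrays. Some of the 14 signs thus come from readings at or near background, and the 7136 are not a matched set. The smallest adjusted p among the 15 was 0.23. The brightest were *Nrv2* and *Nrv3*, beta subunits of the sodium pump, with log2 fold changes of −0.03 and −0.02. *chp* (chaoptin), the adhesion protein of the rhabdomere and a defining photoreceptor marker, was named for that reason and not for its brightness. It read 3607, 3882 and 3720 in controls and 3693, 3023 and 3024 in *loj* (log2 fold change −0.21, SE 0.09, adjusted p = 0.29). As for *trpl*, *loj* arrays 2 and 3 of *chp* were below all controls and array 1 lay among them.

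Of 8 genes of histamine transmission, by which photoreceptors signal to the brain, 0 were called, 4 had positive and 4 negative log2 fold changes, and the changes ran from −0.18 to 0.74. The brightest were *t* (tan), which recycles histamine, with means of 4282 and 4158 in control and *loj*, and the gap junction gene *Inx2*, with 2004 and 2081. *Hdc*, the histidine decarboxylase that makes the transmitter, had means of 1006 and 1004. *e* (ebony), the glial enzyme that inactivates histamine, was picked after its values were seen. It read 680, 537 and 695 in controls and 747, 918 and 1354 in *loj*, above all controls on each *loj* array, with a log2 fold change of 0.62 (SE 0.23, adjusted p = 0.24). In abdomen *e* was at or below background on all 6 arrays (8.12 to 15.7 in controls, 41.1 to 66.1 in *loj*, adjusted p = 0.057). Of 9 lens and pigment cell genes 0 were called, and 7 had positive log2 fold changes with a median of 0.18. Only 5 of the 9 were above background on all 6 head/thorax arrays. The brightest was *Rtnin* (retinin), a protein of the corneal lens, which read 7872, 8028 and 8577 in controls and 8804, 10185 and 10928 in *loj*, above all controls on each *loj* array (adjusted p = 0.16). Such a separation with *loj* higher in head/thorax was found for 11.3% of all probe sets.

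The cell types that share the head/thorax sample were read beside these genes. Of 11 neuron markers 0 were called, and 9 had negative log2 fold changes, against 3983 of the 7136 probe sets above background. Only 6 of the 11 were above background on all 6 head/thorax arrays, so the 7136 are not a matched set here either. The changes of the 11 markers ran from −0.22 to 0.37 with a smallest adjusted p of 0.093. Their summed intensity ranged from 13882 to 14839 on the control head/thorax arrays and from 13271 to 13692 on those of *loj*. The brightest were *cpx* (complexin), with a log2 fold change of −0.11, and *Cha*, the choline acetyltransferase, with −0.15. The defining markers *elav* and *nSyb* had log2 fold changes of −0.00 and −0.01. Of 8 flight and body muscle markers 0 were called (sums of 49330 to 50587 and 48943 to 51611), and of 6 fat body markers 0 (81693 to 85612 and 85434 to 88330). The sum of the 9 lens and pigment cell genes ranged from 13165 to 13858 on control arrays and from 14699 to 16658 on *loj* arrays. *Rtnin* alone made up most of each of these sums, so they do not describe the 9 genes as a set. All 7 ovary markers were at or below background on every head/thorax array. The part of tissue composition in the values of the phototransduction genes was not tested.

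The labels were checked by the targeted gene. In head/thorax the *loj* probe set read 1135 ± 93.9 in controls and 34.7 ± 4.97 in mutants (SD, n = 3), at least 6.97-fold lower.

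Genes with a profile like that of the 7 were found by Pearson's correlation over the 12 arrays with the mean of their centred log2 profiles. The 5 most alike were *Eaat2*, *Cpn*, *Hdc*, *CG31077* and *CG11317*, each with an r of 1.00. *Eaat2* is an amino acid transporter of the nervous system, *Cpn* (calphotin) a calcium-binding protein of photoreceptors and *Hdc* makes their transmitter. The likeness rests mainly on the step between tissues, since 995 of 13639 candidate probe sets reached an r of 0.99. In head/thorax the means of control and *loj* were 2810 and 2603 for *Eaat2*, 1286 and 1152 for *Cpn*, and 3270 and 3473 for *CG31077*, and none of the 5 passed the test (adjusted p from 0.23 to 1.00).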

How the data were processed

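RNA was hybridised to 12 arrays, 1 for each RNA extraction, and each extraction pooled the tissue of 12 females. The deposited intensities are linear, with 1 value for each probe set on each array, as summarised by the authors. GCOS 1.2 is named in the submitters' processing notes, and the methods describe dChip PM and dChip PM-MM values besides those of GCOS. Not given in the sources used here are the summary that was deposited and the scaling between arrays. Of the values tested, 4546 (2.02%) were below 0.

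Before taking log2, intensities below 1 were replaced by 1, and 183 array control probe sets were omitted. Genotypes within each tissue, and tissues within controls, were tested with limma (version 3.58.1; R 4.3.3) by linear models and eBayes with an intensity trend, two-sided, and the genotype by tissue interaction with 4 group means. Benjamini-Hochberg adjustment ran over 18769 probe sets. Calls needed an adjusted p under 0.05 and 1.5-fold (for the interaction the adjusted p alone). The background level was chosen after the data were seen, and 39.6% to 54.5% of probe sets per array exceeded it. The median intensity per array ranged from 93.4 to 102 (abdomen) and from 145 to 160 (head/thorax). The script was tested on simulated data. Nothing states whether the 3 extractions of a group came from separate cultures, so p-values measure the spread between these samples. For probe sets at background that spread depends on the floor of 1.

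The array annotation gives 13646 probe sets 1 symbol, 402 several and 4721 none. Named were all probe sets of the 10 genes, called genes of each further list (otherwise the brightest 1 or 2) and the 5 closest profiles, and genes named outside this rule are marked in the text. The genes and lists were chosen with earlier results of these data known. Sequences and promoters are not analysed here. Alternatives tried were the scaling, an added value, a floor, an intensity filter, the variance prior, the call rule, a replicate block, each array left out, all arrays in 1 fit and a Cyber-T style test.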

Additional observations from a re-analysis of the deposited data

Results flagged for a closer look

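One result among the followed genes was singled out because its change in *loj* differed between tissues. The flight muscle gene *TpnC4*, a troponin C, had an interaction of 1.60 on the log2 scale (limma, adjusted p = 0.039, 12 arrays), with head/thorax means of 11380 in controls and 10191 in *loj*. In abdomen it read 44.3, 73.2 and 87.2 in controls and 21.0, 22.2 and 15.6 in *loj*, at or below background on all 6 arrays, so that the abdomen side holds no measured fold.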

How the results depend on the processing

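None of the 7 phototransduction genes was called between *loj* and control in head/thorax, in abdomen or in the interaction under any alternative run, including each array left out. The abdomen comparison without dim probe sets gave no value, as no gene of the 7 was left. All 7 remained called between control tissues, except that 4 were called when probe sets under the median intensity were left out, because fewer of the 7 were tested. In head/thorax the log2 fold change of *inaD* turned to −0.0070 after quantile normalization, and with each array left out it ranged from −0.042 to 0.079. That of *Arr2* ranged from −0.026 to 0.018 with each array left out and turned positive without control array 1 (0.0019), control array 2 (0.018), *loj* array 2 (0.0042) or *loj* array 3 (0.015). The replicate numbers pair the samples only weakly. Same-numbered control and *loj* head/thorax arrays deviated together by r = 0.05, 0.04 and 0.12 over all probe sets and by 0.10, 0.13 and 0.39 over those above background, where other numbers reached 0.18. The replicate block called 0 of the 7 in head/thorax, 0 in abdomen, 0 in the interaction and 7 between tissues. Over all probe sets it called 135 in head/thorax (350 without it), 1 in abdomen (164) and 62 in the interaction (95). Counts over all probe sets also moved by over 1.5 times in head/thorax to 228 (floor of 32), 197 (no trend), 694 (Cyber-T style) and 93 to 395 (1 array left out), and in abdomen to 86, 55, 572, 22 to 52, and 419 with all arrays in 1 fit. In the interaction they moved to 144 (adding 32), 170 (floor of 32), 147 (thresholds of the methods) and 54 to 133 (1 array left out). Of the further lists, lens and pigment cell genes had 1 call under 3 of 16 alternatives and histamine transmission genes 1 under 2. The call among maturation and chromophore genes, *ninaD*, was absent under 2. Without *loj* array 2 its adjusted p was 0.051, and with the intensity filter *ninaD* was not tested. *rdgB*, *laza* and *pinta* kept their sign under all 16 alternatives, with adjusted p from 0.00045 to 0.15, 0.0015 to 0.10 and 0.0092 to 0.076.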
